A study of Rattus norvegicus with 24 samples.

Results

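Stat3 is a latent transcription factor that cytokine and hormone receptors switch on. Leptin, interleukin 6 and their relatives bind receptors that carry Janus kinases, the kinases phosphorylate Stat3, and paired Stat3 molecules enter the nucleus and act on target genes. Socs3 is such a target, and its protein shuts the same receptors off. In the heart, Stat3 is known for its part in the response of cardiomyocytes to stress and ischemia. Phosphorylation is not read by mRNA sequencing, which gives only the level of the transcript.

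The genes of interest were Stat3 and Socs3, chosen by 2 Ensembl identifiers and an expected place on chromosome 10. Stat3 (ENSRNOG00000019742) was found on chromosome 10, as 1 of 30562 genes counted. The identifier given for Socs3 (ENSRNOG00000002946) matched 0 of them, so Socs3 was not analysed here. The question addressed was whether Stat3 mRNA in the heart septum differed after leptin had been given into the brain.

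All 24 animals were Sprague-Dawley rats that had gone through cardiac ischemia-reperfusion, in which blood flow to heart muscle is stopped and then restored, and then had leptin or vehicle infused into the brain without a break until septum was taken on day 28. They formed 4 groups of 6, each library from a separately numbered rat. The reference group had intact brown adipose tissue (BAT, a heat-producing fat depot) and received vehicle into the cerebral ventricles. The second group had intact BAT and received leptin by the same route. The third and the fourth received leptin after BAT ablation (BATx) or after sympathetic denervation of BAT (BATsx). Neither operation was paired with vehicle, so an effect of the operation alone cannot be told apart from its effect under leptin. How BAT was ablated or denervated, and the age and sex of the rats, are not given in the sources used here.

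On the mRatBN7.2 assembly Stat3 spans chromosome 10 from 85811218 to 85863057 on the minus strand, with an exonic length of 5537 bp. It overlapped 0 other annotated genes on either strand, so its reads were not shared with an annotated antisense partner, although counting took no account of strand. Counts were made per gene, so the full-length and the shortened splice form of Stat3 cannot be told apart. In RefSeq's GRCr8 annotation the neighbouring protein-coding genes on one side are its relatives Stat5a and Stat5b, and on the other side Cavin1, which encodes a coat protein of caveolae.

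Stat3 is also known to act on its own promoter, so the stretch upstream of its start site is shown, as RefSeq's GRCr8 build gives it (chr10:86363360-86363609, minus strand, the 250 bases before the start, written 5′ to 3′):
Stat3 promoter: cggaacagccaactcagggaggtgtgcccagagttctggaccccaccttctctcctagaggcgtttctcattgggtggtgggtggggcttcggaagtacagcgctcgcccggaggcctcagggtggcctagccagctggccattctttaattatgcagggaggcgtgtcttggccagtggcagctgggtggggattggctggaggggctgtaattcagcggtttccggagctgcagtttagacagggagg
The letters of the usual Stat site, TTCNNNGAA, occurred 0 times in this window, and a variant with a longer gap also 0 times. Each motif is its own reverse complement, so both strands were read. Capitals would mark a match, and there was none. Among 33469 RefSeq promoter windows of the same length, 7.67% held TTCNNNGAA and 6.25% held the variant. The window had a GC content of 60.8%, against a median of 51.2% over those windows. A match or its absence in these letters says nothing of where the protein binds.

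Stat3 was an abundant transcript of the septum in every library. Libraries held 71587993 to 122910706 reads assigned to genes, of which 7617 to 27218 fell on Stat3. Levels are given as CPM (counts relative to the library size, scaled by TMM, edgeR's trimmed mean of M values), and for comparison with other genes as CPM per kilobase of exonic length. At a mean of 27.7 CPM per kilobase, Stat3 lay above 90.8% of the 17347 genes that passed the filter on low counts, whose median was 3.37 CPM per kilobase.

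With intact BAT and vehicle, Stat3 ranged from 112 to 242 CPM with a median of 173 CPM. With intact BAT and leptin it ranged from 82.8 to 229.5 CPM with a median of 107 CPM. After BAT ablation with leptin the range was 100.5 to 280.0 CPM with a median of 123 CPM, and after BAT denervation with leptin it was 98.3 to 297 CPM with a median of 119 CPM. All 4 ranges overlapped, and in each group the libraries split into a lower and an upper cluster with none between 139 and 220.0 CPM.

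**Figure D1:**
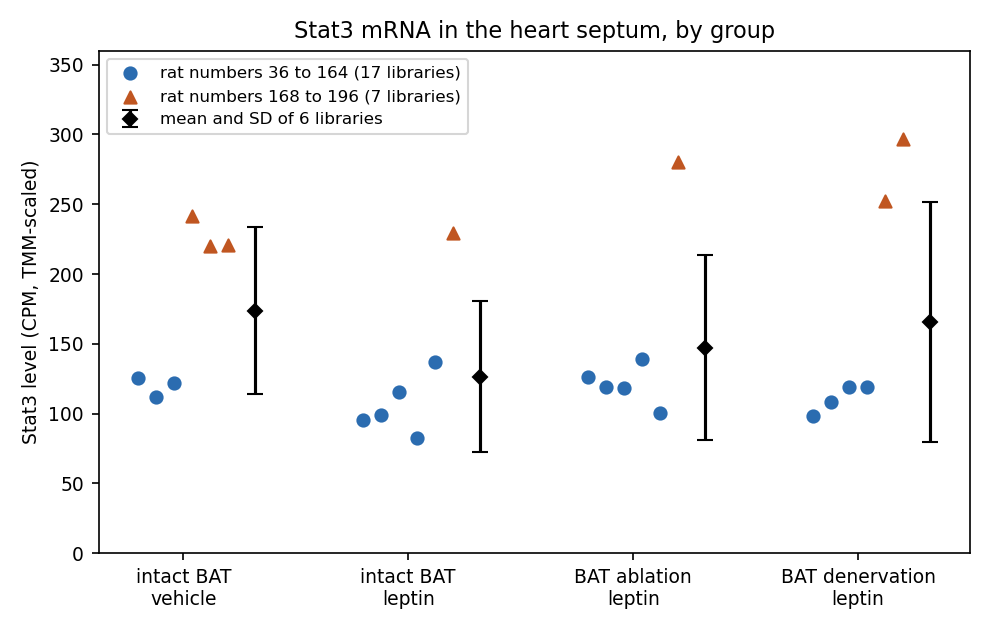
Stat3 level in CPM for each of the 24 libraries, by group, with triangles for the 7 rats with the highest numbers in the labels, circles for the other 17, and diamonds with bars for the mean and SD of the 6 libraries of a group. The triangles lie from 220.0 to 297 CPM and the circles from 82.8 to 139 CPM in all 4 groups, so the spread within each group is wider than the distance between the group means.

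The group means followed the order vehicle, denervation, ablation, leptin, at 174 ± 59.7, 166 ± 85.8, 147 ± 66.2 and 127 ± 53.8 CPM (SD, n = 6 each). No neighbours in that order, nor its ends, differed beyond their spread. A test over the 4 groups at once did not pass (edgeR quasi-likelihood F test, adjusted p = 0.698), in a fit where 0.0692% of the tested genes did.

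Leptin against vehicle with intact BAT, the direct test of leptin given into the brain, put Stat3 at -0.46 ± 0.33 on the log2 scale (SE, edgeR quasi-likelihood test, adjusted p = 0.383). Its 95% interval ran from a fold of 0.455 to a fold of 1.17. In this comparison 0.674% of all tested genes passed at an adjusted p below 0.05.

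Under leptin, Stat3 was compared between operated rats and rats with intact BAT. Ablation moved it by 0.22 ± 0.33 on the log2 scale (SE, edgeR adjusted p = 0.798), in a comparison where 3.03% of the tested genes passed. For denervation the value was 0.39 ± 0.33 (edgeR adjusted p = 0.562), where 0% passed. Both comparisons share their leptin libraries with the one above. Neither value was larger than the spread between rats. The mean mitochondrial share of reads was lowest after denervation, at 26.7% ± 1.97 against 33.5% ± 5.35 with intact BAT and leptin, 34.7% ± 8.24 after ablation and 35.2% ± 1.17 with vehicle (SD, n = 6 each). The part of this share in the Stat3 differences between groups was not tested. Its relation to the Stat3 level among libraries is given further below.

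Against intact BAT with vehicle, ablation with leptin gave a Stat3 log2 difference of -0.24 ± 0.33 and denervation with leptin one of -0.07 ± 0.33 (SE, edgeR adjusted p = 0.714 and 1.00). Ablation differed from denervation by -0.17 ± 0.33 (edgeR adjusted p = 0.917). In each of these 3 comparisons 0% of the tested genes passed. For the 4 comparisons with no called gene, edgeR gave 2836 genes at an unadjusted p below 0.05 for denervation against intact BAT. It gave 1892 for ablation against vehicle, 348 for denervation against vehicle and 778 for ablation against denervation. In the same order DESeq2 called 436, 17, 0 and 0 genes, and limma's voom method with sample weights called 3955, 9663, 8051 and 54.

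The upper cluster of Stat3 values consisted of the 7 rats with the highest numbers in the labels, and the lower cluster of the other 17. The labels give the numbers and not what they stand for. This boundary was known from the first principal component of these same libraries, which carried 45.9% of the variance, so the Stat3 values of the 2 sets are given as a description and without a test. The high-numbered rats had 249 ± 29.7 CPM of Stat3 (SD, n = 7) and the low-numbered rats 114 ± 15.1 CPM (SD, n = 17). Every high-numbered rat lay above every low-numbered one on this scale, with RLE and with library totals, but not with nuclear totals, as given next.

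Adjusted for group, the Stat3 level of the high-numbered set was higher by 1.13 ± 0.09 on the log2 scale (SE), a fold of 2.18. A larger rise was found for 13.8% of the tested genes, and the median absolute difference over all of them was 0.71. The size depended on how libraries were scaled. From the set means, the fold was 2.19 with TMM and 2.15 with RLE (the size factors of DESeq2), but 1.63 when counts were divided by the library total. It was 1.60 when they were divided by the total of nuclear genes. In that last scaling the sets overlapped, with a lowest high-numbered rat at 247 CPM and a highest low-numbered rat at 251 CPM of nuclear reads. The median gene moved with the scaling, by -0.05 on the log2 scale with TMM, -0.07 with RLE, -0.47 with library totals and -0.50 with nuclear totals. Relative to it, Stat3 stood 1.18 higher, a value that scaling cannot change, since it shifts every gene of a library alike.

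The sets were spread unequally over the groups, with 3 high-numbered rats in the vehicle group, 2 in the denervation group and 1 each in the leptin and ablation groups. The group means above fell in the order of these numbers, in which the leptin and ablation groups tie. Within the low-numbered rats Stat3 stood at 119.8 ± 7.13 CPM with vehicle (SD, n = 3) and 106 ± 21.0 CPM with leptin (n = 5). After ablation it stood at 121 ± 14.1 CPM (n = 5) and after denervation at 111 ± 9.94 CPM (n = 4). Within the high-numbered rats it stood at 228 ± 12.2 CPM with vehicle (n = 3), 229.5 CPM in the single leptin rat, 280.0 CPM in the single ablation rat, and 252 and 297 CPM in the 2 denervation rats. In the low-numbered set the vehicle values lay inside the range of the leptin values, and in the high-numbered set the leptin value lay inside the range of the vehicle values.

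Adding the rat-number set to the model as a covariate narrowed the Stat3 comparisons. The spread left between libraries fell from an SD of 0.57 to 0.18 on the log2 scale, and the SE of the differences was 0.12 in place of 0.33. Stat3 with leptin then stood at -0.08 ± 0.12 from vehicle on the log2 scale (SE, edgeR adjusted p = 0.707), in a comparison where 6.13% of the tested genes passed. The 95% interval ran from a fold of 0.796 to 1.12. Ablation against intact BAT gave 0.21 ± 0.12 (edgeR adjusted p = 0.224), with a log2 interval from -0.04 to 0.45, where 18.6% of genes passed. Denervation against intact BAT gave 0.13 ± 0.12 (edgeR adjusted p = 0.492), with a fold interval from 0.926 to 1.30, where 6.65% passed. These shares of called genes moved widely when 1 library was left out. The 1063 genes called for leptin became 98 without vehicle replicate 3 and 2219 without leptin replicate 5. The 1154 for denervation became 1 without denervation replicate 4 and 2329 without leptin replicate 5, and 2 with a length gradient added.

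The remaining comparisons changed sign in this fit. Ablation against vehicle was 0.12 ± 0.12, denervation against vehicle 0.05 ± 0.12 and ablation against denervation 0.07 ± 0.12 (SE, edgeR adjusted p = 0.787, 0.999 and 0.896), with 0% of genes passing in each. Here edgeR gave 1487, 659 and 1482 genes at an unadjusted p below 0.05, and weighted limma with the same term called 6, 45 and 0. Over these 3 intervals the folds ran from 0.876 to 1.29. With the rat number as a linear covariate in place of the sets, the same comparisons kept the negative sign, and ablation against vehicle stood at -0.49 ± 0.20 (edgeR adjusted p = 0.0525). The test over the 4 groups gave an adjusted p of 0.552 (edgeR F test), where 10.3% of genes passed. Thus Stat3 was not among the genes called in any of the 6 comparisons by edgeR, with or without the rat-number term.

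**Figure D2:**
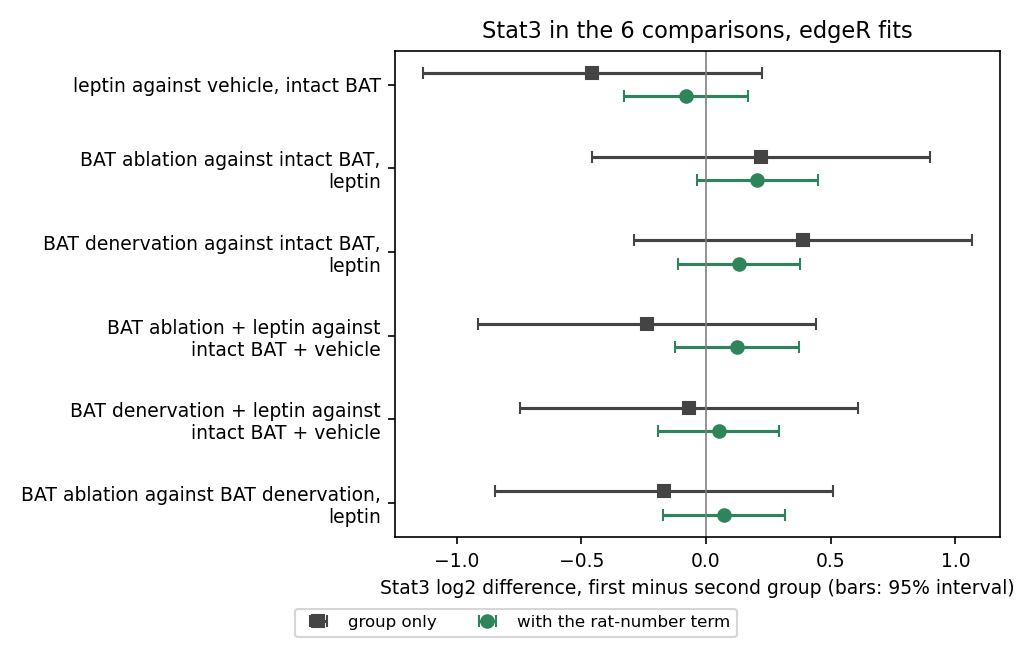
Stat3 log2 differences of the first minus the second group in the 6 comparisons, with 95% intervals, from the edgeR fit with groups only (squares) and from that with the rat-number term (circles). Every interval holds 0, and the intervals narrow from an SE of 0.33 to an SE of 0.12 once the term is in the model.

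Among the models tried, Stat3 was called only where libraries were weighted and the rat-number term was left out. With sample weights and no rat-number term, limma's voom method placed Stat3 lower with leptin than with vehicle, at a log2 difference of -0.97 ± 0.21 (SE, limma adjusted p = 0.000485). It also placed Stat3 below vehicle after ablation and after denervation, both by -0.73 (limma adjusted p = 0.00491 and 0.00485). It called 10526, 9663 and 8051 of 17347 genes in these comparisons. Its estimated weights gave the 3 high-numbered rats 84.6% of the weight of the vehicle group, and the high-numbered rats 2.75% in the leptin group, 4.83% after ablation and 9.22% after denervation. Without weights the leptin difference was -0.47 ± 0.31 (limma adjusted p = 0.328), and with weights and the rat-number term it was -0.09 ± 0.11 (limma adjusted p = 0.585).

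**Figure D3:**
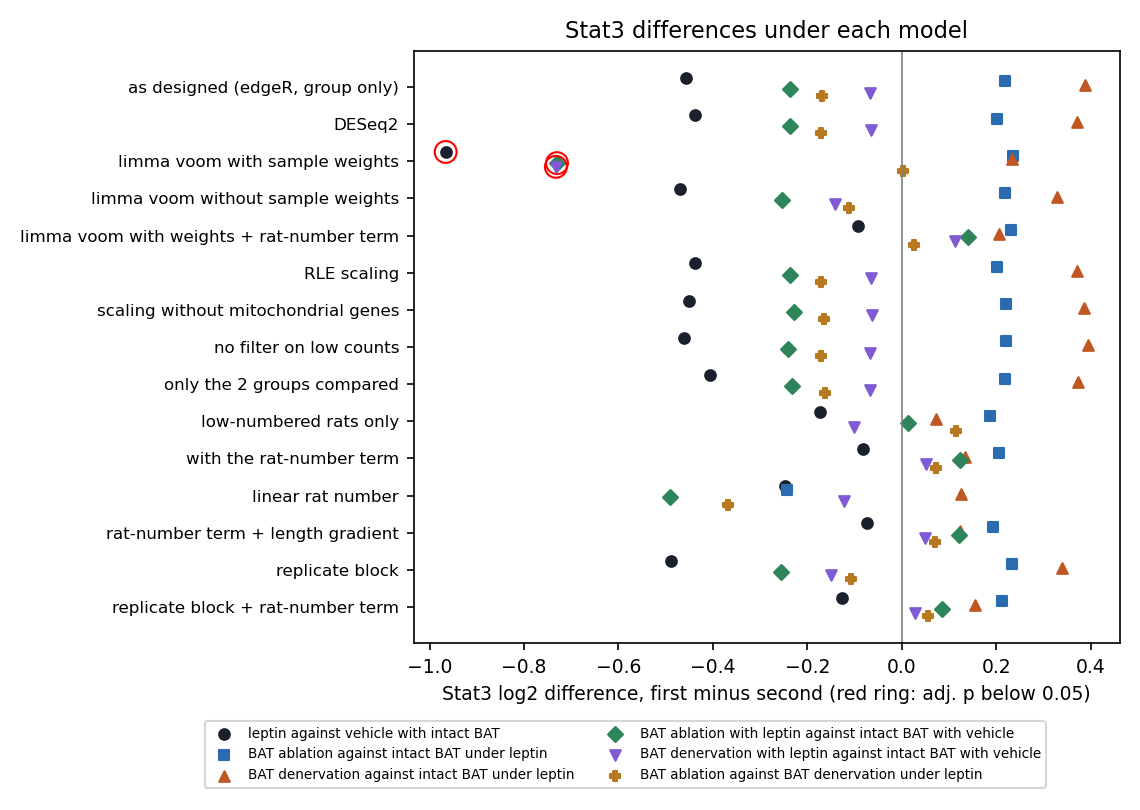
Stat3 log2 difference in each of the 6 comparisons (symbols) under the designed fit and 14 other models (rows), with red rings at an adjusted p below 0.05. Rings appear in the limma voom row with sample weights and no rat-number term, at -0.97 and at -0.73 (2 symbols), and in no other row.

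Of 3 other properties of the libraries, the length gradient and the library total were higher on average in the high-numbered rats, with overlapping ranges, and the mitochondrial share differed by less than its spread. Genes were put into 5 classes by length, and the length gradient is how far the longest class stood above the shortest in a library (difference of the medians of log2 CPM centred per gene). It was 0.34 ± 0.10 in the high-numbered rats (SD, n = 7) and -0.17 ± 0.16 in the low-numbered rats (SD, n = 17). The overlap was slight, with the highest low-numbered rat at 0.177 and the lowest high-numbered rat at 0.171. Stat3 has 5537 bp of exon, against a median of 3088 bp over the other tested genes with a mean of at least 1 CPM. The part of the gradient in the Stat3 difference between the sets was not tested. Library totals were 111976242 ± 9261331 and 90019043 ± 9608316 reads in the same sets, and mitochondrial reads made up 31.6% ± 3.91 and 32.9% ± 6.57 of them. With the gradient in the model beside the rat-number term, the Stat3 difference of leptin from vehicle was -0.07 ± 0.12 (SE, edgeR adjusted p = 0.776).

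Within the sets, 6 relations of Stat3 (log2 CPM) with the rat number, the mitochondrial share and the length gradient were tested. These relations were not among the planned tests, and none passed after adjustment. The strongest was with the mitochondrial share in the high-numbered rats, at a Pearson r of -0.84 (exact permutation p = 0.0377, adjusted p = 0.219, two-sided, n = 7) and a Spearman rho of -0.64 (exact permutation p = 0.139, adjusted p = 0.417). Without the 2 libraries farthest from the median share r was -0.82, and after subtracting group means it was -0.10. The latter value rests on the vehicle and denervation rats, since the leptin and ablation groups each held a single high-numbered rat. In the low-numbered rats Stat3 was related to the rat number at an r of 0.44 (permutation p = 0.0731, adjusted p = 0.219, two-sided, n = 17) and a rho of 0.42 (permutation p = 0.0953, adjusted p = 0.417). That r was 0.51 without the 2 farthest libraries and 0.38 after subtracting group means.

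**Figure D4:**
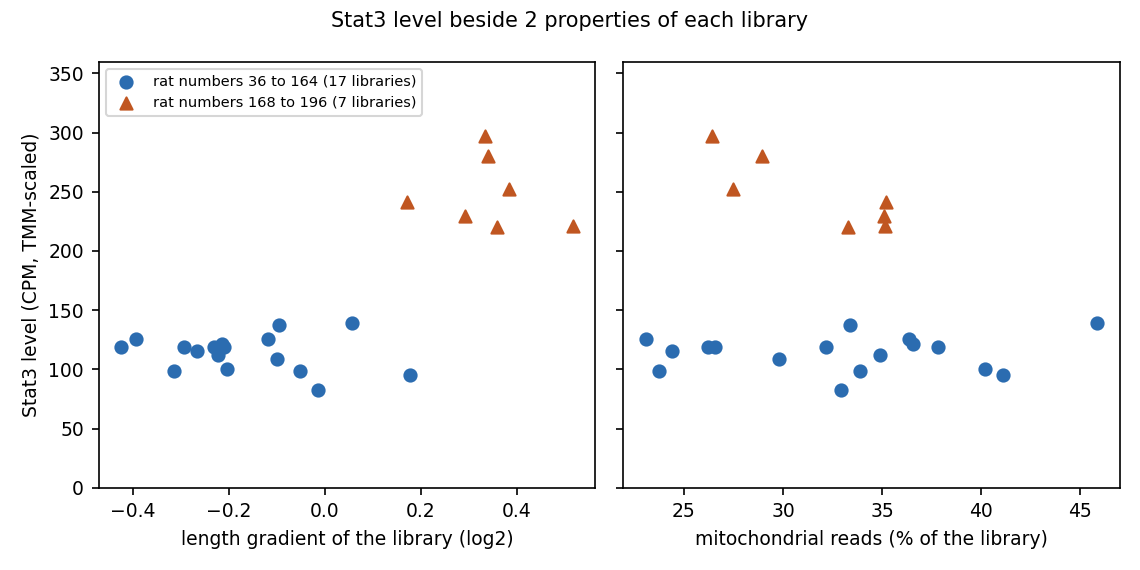
Stat3 level in CPM against the length gradient (left, log2) and the mitochondrial share of reads (right, percent) of each library, with circles for the 17 low-numbered and triangles for the 7 high-numbered rats. On this TMM scale the sets stand apart in Stat3 level, and they overlap in the mitochondrial share. There the triangles fall from the upper left to the lower right. Computed on log2 CPM, their r was -0.84 and did not pass (exact permutation test, adjusted p = 0.219, n = 7).

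Accounting for the rat-number set beside the groups lowered the variation of Stat3 from rat to rat. Its biological coefficient of variation in the edgeR model was 0.401 with groups only, larger than that of 50.8% of the tested genes. With the rat-number term it was 0.153, larger than that of 12.5% of them. The ranking was over all tested genes and not over genes of like level, and Stat3 lay above 95.7% of them in CPM. The rat-number boundary was itself known from these same libraries.

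The genes around Stat3 varied in their difference between the rat-number sets. Of the 3 tested genes on each side, 2 of 6 were higher in the high-numbered rats, by 0.59 (ENSRNOG00000019075) and 1.00 (ENSRNOG00000019778) on the log2 scale. The nearest, ENSRNOG00000019496, ends 1351 bp from Stat3 on the plus strand and differed by -0.09 on the log2 scale, where Stat3 differed by 1.13. After subtracting the means of the sets, its level correlated at -0.56 with that of Stat3 over the 24 libraries, as a description. In the fit with the rat-number term 1 of the 6 passed for leptin against vehicle (6.13% of all tested genes), 1 for ablation against intact BAT (18.6% of all) and 0 for denervation against intact BAT (6.65% of all). Both passes were of ENSRNOG00000071138 (edgeR adjusted p = 0.0298 and 0.0368), a gene near the floor at 0.0659 CPM per kilobase. The files do not pair these identifiers with names.

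Genes whose pattern was most like that of Stat3 were sought among 13382 tested genes with a mean of at least 1 CPM, by the Pearson correlation of log2 CPM over the 24 libraries after subtracting the means of the rat-number sets. The highest was ENSRNOG00000002192 on chromosome 14 (44303009 to 44378500, plus strand) at 0.81, and the next was ENSRNOG00000004139 on chromosome 10 (53516491 to 53570907, minus strand), also at 0.81. Within the low-numbered and the high-numbered rats the first gene correlated at 0.82 and 0.80, and the second at 0.87 and 0.50. Both genes were picked as the highest of 13382 over these same libraries. High values within the sets therefore follow in part from that choice. The median over all genes was 0.01 and the 95th percentile 0.58. All of these values share libraries and depth.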

How the data were processed

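The authors deposited whole-number read counts per gene for messenger RNA of the heart septum. The tools listed in the submitters' processing notes are STAR 2.7.10a, featureCounts 2.0.2, DESeq2 and R 4.4.1, without their order. The header of the table gives featureCounts 2.0.6, run in paired-end mode on the Ensembl 113 annotation of mRatBN7.2, with no option for strand or for counting a pair once. Even values prevail (19013 cells hold 2 and 5161 hold 1), as when both mates are counted, so values are taken as reads and not fragments. A further 5 count columns match no listed sample and were not used. No 2 libraries were identical.

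Genes were kept by filterByExpr (17347 of 30562), scaled by TMM and fitted with edgeR 4.0.16 (robust quasi-likelihood, R 4.3.3) in 1 model of 24 libraries, with Benjamini-Hochberg adjustment over all tested genes at 0.05. Standard errors came from the F statistic. Alternatives used DESeq2 1.42.0, limma 3.58.1, other scalings, filters and covariates, and each library left out. The gene, the lists, the rat-number boundary and the tests were chosen with earlier results of these data known.

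Genes to be named were Stat3, Socs3, any gene of 6 pathway lists and 11 marker lists that passed, and the genes most like Stat3. The RefSeq table used here paired 0 of the Ensembl identifiers with a symbol, so the lists, the check of tissue markers, and all results on Socs3 (its levels, its ratio to Stat3 and their correlation) were not run. In place of 5 named genes most like Stat3, the 2 highest are given by identifier, a change made after seeing the data. In a bulk sample, fewer cells of a type and less RNA per cell cannot be told apart. Same-numbered replicates were not treated as pairs in the designed fit, since the labels state no pairing. Their deviations from the group means correlated at -0.34 to 0.73. For replicate 6, a high-numbered rat in every group, all 6 pairs lay between 0.65 and 0.73. For replicates 1 and 2 all 6 pairs lay above 0.1.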

Additional observations from a re-analysis of the deposited data

Results flagged for a closer look

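In 2 of the 4 groups of 6, the highest Stat3 library stood farther from the others than Dixon's test at the 95% level allows. In the leptin group with intact BAT it was replicate 6 at 229.5 CPM, whose gap to the next library took 0.629 of the range of the group, just above the critical value. In the ablation group it was replicate 6 at 280.0 CPM, with a gap of 0.783 of the range. Each is the only high-numbered rat of its group, and the other 5 high-numbered rats ranged from 220.0 to 297 CPM. A chance rate of about 1 in 20 holds for groups whose values form 1 cluster. The groups here split into a lower and an upper cluster, so that rate does not apply to them. What sets the high-numbered rats apart was not tested.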

How the results depend on the processing

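Stat3 passed in 4 of 289 alternative values, all from limma voom with sample weights and no rat-number term: -0.97 for leptin against vehicle, -0.73 for ablation and -0.73 for denervation against vehicle, and an adjusted p of 0.00168 over the 4 groups. The same setting gave 0.0024 for ablation against denervation, which reversed its sign. Signs also reversed, uncalled, in the fits with a rat-number term: ablation against vehicle was 0.12 with the term, 0.12 with a length gradient added, 0.085 with the replicate block added and 0.14 in weighted limma. Denervation against vehicle was 0.052, 0.050, 0.029 and 0.11 in the same fits, and ablation against denervation 0.072, 0.071, 0.056 and 0.027. In the low-numbered rats alone, ablation was 0.013 from vehicle and 0.11 from denervation. With the rat number as a linear covariate, ablation against intact BAT was -0.24, against vehicle -0.49 and against denervation -0.37.

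Leaving out 1 library moved leptin against vehicle from -0.71 to -0.34, ablation against intact BAT from -0.068 to 0.48, and denervation against intact BAT from 0.14 to 0.65. Ablation against vehicle moved from -0.52 to -0.12, denervation against vehicle from -0.32 to 0.050, and ablation against denervation from -0.46 to 0.079. The signs turned for ablation against intact BAT without ablation replicate 6, for ablation against denervation without denervation replicate 6, and for denervation against vehicle without any of vehicle replicates 4 to 6 or denervation replicates 1 to 4. The 4-group adjusted p moved from 0.297 to 0.836. With the rat-number term, an addition made after seeing the data as were unweighted limma and weighted limma with the term, these ranges were -0.17 to -0.024, 0.14 to 0.29, 0.074 to 0.22, 0.084 to 0.17, -0.010 to 0.094, 0.024 to 0.12, and an adjusted p of 0.238 to 0.750.

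With the replicate block, leptin against vehicle was -0.49 ± 0.21 (edgeR adjusted p = 0.0918) and no Stat3 call changed. The labels state no pairing by these numbers. Of the 24 libraries, 9 correlated best with a library of their own number, and the share to be met without pairing was not computed. The background count for leptin against vehicle was 117 as designed, 1538 by DESeq2, 1063 with the rat-number term, 3635 with the block and 6 with only the 2 groups compared. For ablation against intact BAT these were 525, 1267, 3219, 1021 and 0, and for denervation against intact BAT 0, 436, 1154, 512 and 0. Leaving out 1 library moved the designed count for leptin from 1 (leptin replicate 1 and 4 others) to 4454 (leptin replicate 6), for ablation from 7 (ablation replicate 3) to 1037 (leptin replicate 6), and for denervation from 0 to 647 (leptin replicate 6). With the term the ablation count moved from 1652 (ablation replicate 3) to 4303 (ablation replicate 4).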
